A study of Rattus norvegicus with 4 samples.

Results

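The values described here set the hypothalamus of FR30 offspring, which were undernourished before birth, against that of control offspring when both had eaten a high-fat (HF) diet. FR30 and HF are the labels' own names. All animals were male Wistar rats aged 4 months, and the groups shared strain, sex, age and tissue. Within the comparison the prenatal group was the labelled difference. It holds 2 of the 4 samples of the study, 1 for FR30 on HF diet and 1 for control on HF diet, and the other 2 are the same prenatal groups on a standard diet. Total RNA of isolated hypothalami was hybridised to Illumina rat bead arrays, which read the brightness of short gene probes. The sources used here do not say whether a sample is 1 animal or a pool.

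With 1 sample per group, no test was possible, there was no replicate check, and differences are described by size. Of 21397 genes on the array, 10347 were detected in both HF samples at a detection p-value under 0.01, and all of these were compared. Signals are the authors' normalized intensities, printed with the deposited SD, and the files do not say over what that SD was taken. Differences are log2 values, FR30 minus control on HF diet unless another pair is named, after background correction and quantile normalization. They are therefore larger than the ratio of the printed signals for dim genes. The median over all compared genes was 0.00, the middle 95% lay between -0.33 and 0.33, and 9371 genes differed by less than 1.2-fold. Of all genes compared, 51.4% were higher in FR30, the share against which the counts of each gene list are to be read. In these HF samples 11122 probes were detected for control and 10712 for FR30, and the deposited SD had a median of 3.20% and 3.40% of the signal. The tissue label was checked with 16 hypothalamic markers, of which 15 were detected in all 4 samples, while Sim1, a transcription factor of the paraventricular nucleus, was not detected in either HF sample.

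The hypothalamus holds neurons for feeding, stress and water balance, and a dissected piece also carries the membranes that cover the brain. These membranes, the meninges, contain fibroblast-like cells that make collagen, retinoic acid and transporters for organic ions at the border between blood, cerebrospinal fluid and brain. Dopamine neurons take their transmitter up again through the transporter encoded by Slc6a3, which is abundant in the midbrain and much scarcer in the hypothalamus.

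Beside the genes on which the results turn, the 250 bases before the start of transcription are shown for the dopamine transporter and for a pair of genes of the meninges, since these stood high in FR30 on HF diet. They come from RefSeq (build GRCr8), run 5′ to 3′ on the gene's own strand, and carry GC boxes in capitals. The Slc6a3 window is chr1:31578963-31579212 on the minus strand, the Slc22a2 window is chr1:50711020-50711269 on the minus strand, and the Cyp1b1 window is chr6:21094315-21094564 on the plus strand.
Slc6a3: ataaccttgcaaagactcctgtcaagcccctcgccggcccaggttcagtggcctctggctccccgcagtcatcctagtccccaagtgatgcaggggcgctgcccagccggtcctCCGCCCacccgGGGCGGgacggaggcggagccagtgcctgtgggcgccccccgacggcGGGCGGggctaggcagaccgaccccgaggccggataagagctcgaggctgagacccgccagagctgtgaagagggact
Slc22a2: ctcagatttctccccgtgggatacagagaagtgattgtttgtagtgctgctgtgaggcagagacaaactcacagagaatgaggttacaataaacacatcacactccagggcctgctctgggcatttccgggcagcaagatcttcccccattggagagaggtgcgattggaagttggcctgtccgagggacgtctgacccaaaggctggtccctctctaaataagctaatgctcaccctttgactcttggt
Cyp1b1: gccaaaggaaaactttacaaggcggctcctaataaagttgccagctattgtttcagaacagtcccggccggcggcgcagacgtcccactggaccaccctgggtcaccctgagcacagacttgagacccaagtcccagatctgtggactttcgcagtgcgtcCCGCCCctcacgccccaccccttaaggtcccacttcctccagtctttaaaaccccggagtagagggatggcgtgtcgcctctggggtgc
On both strands these windows were searched for the GC box GGGCGG, the TATA box TATAAA, the forkhead core TGTTTAC and the nuclear receptor element AAGGTCA. The Slc6a3 window held 3 GC boxes, the Cyp1b1 window held 1, 89 bases before the start, and the Slc22a2 window held none of the 4 motifs. Among 27457 rat promoter windows of this length, 32.4% held a GC box, 13.1% a TATA box, 3.2% the forkhead core and 3.8% the receptor element. A match describes the letters alone.

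Across the array, 83 genes (0.802% of those compared) differed by 1.5-fold or more, a log2 difference of 0.58. Of these, 57 (0.551%) were higher and 26 (0.251%) lower in FR30, and 66 carry a gene symbol. At 2-fold or more, 12 were higher and 5 lower. The deposited signals of 78 of the 83 lay more than 2 SD apart on each side, against 12.4% of all genes compared, of which 5.9% were higher and 6.51% lower. The 83 were chosen by the size of the difference between the same samples, so this count largely follows from that choice. Of the 83, 38 lay among the dimmest 2587 genes by level and 3 among the brightest 2587. Just inside the 1.5-fold line lay Ogn at 0.59 and Rps16 at -0.59, and just outside it lay Igf2 at 0.58 and Rps6ka6 at -0.58. The scatter of signals shows how narrow the cloud of other genes was.

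**Figure D1:**
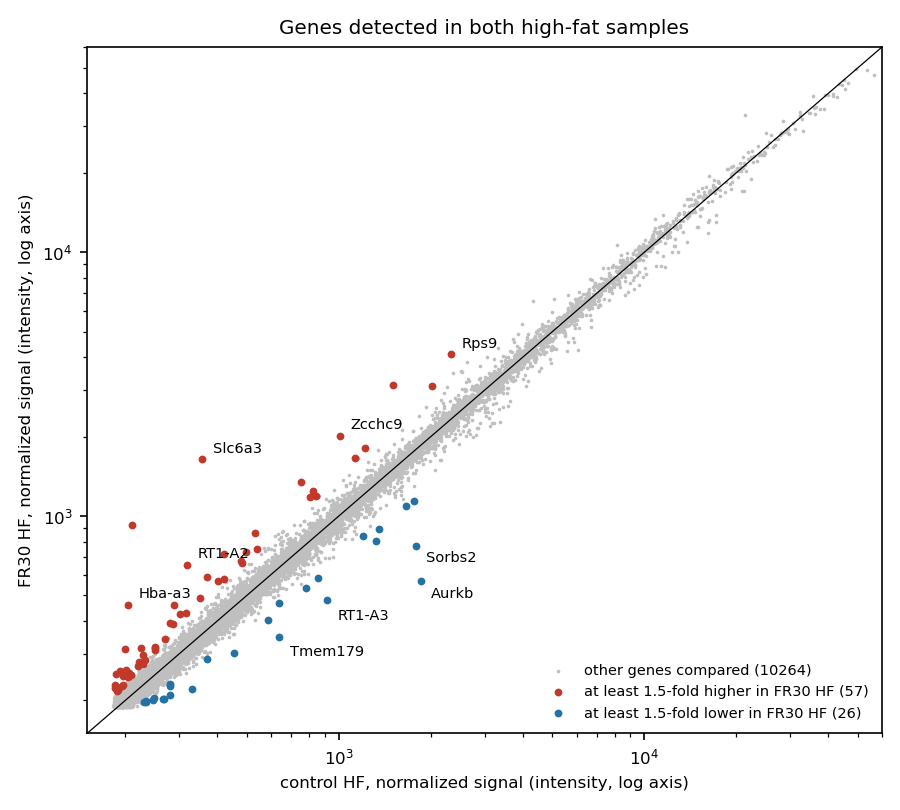
Normalized signal (intensity, log axes) of each of the 10347 genes detected in both HF samples, control HF on the horizontal and FR30 HF on the vertical axis, with the line of equal signal. Red points are the 57 genes at least 1.5-fold higher and blue points the 26 at least 1.5-fold lower in FR30 HF, many of them at the dim end, with Slc6a3 and Aurkb far from the line.

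The meninges and their fibroblasts had the highest median of all gene lists. Of 45 listed genes on the array, 39 were detected in both HF samples, and 32 of them were higher and 7 lower in FR30. Their median was 0.38, against 0.00 over all genes, and 11 passed 1.5-fold higher and 0 lower. The deposited signals of 24 were more than 2 SD higher and those of 1 more than 2 SD lower in FR30, together 64.1% of the list. Over all genes compared this share was 12.4%. The shared direction took in transporters, retinoid enzymes, growth factors and matrix genes. In a bulk sample, fewer cells of a type and less RNA per cell cannot be told apart. The list was chosen with earlier results of these data known, and so is no independent evidence of its direction.

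The list's highest member and several others were transporters. Slc22a2, an organic cation transporter whose promoter is printed above, had a signal of 186 ± 7.46 (deposited SD) in control and 252 ± 5.30 in FR30 on HF diet, a difference of 1.17. Slc47a1, which exports organic cations with protons, had 195 ± 2.11 and 253 ± 9.01, a difference of 0.98. Both were dim, and they differed by 0.44 and 0.38 on the authors' normalized signals, in which background is retained. Slc6a20a, a proline transporter, stood at 316 ± 8.59 and 428 ± 21.7 (0.68), and Slc6a13, a GABA and taurine transporter, at 233 ± 3.20 and 284 ± 3.65 (0.60). Slc22a2 was highest of the 4 samples in FR30 HF, whereas Slc47a1 and Slc6a13 were highest in FR30 on standard diet and lowest in control HF.

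A few enzymes of retinoid and cytochrome P450 metabolism, grouped after their values were seen, were also higher. Aldh1a2, which makes retinoic acid and marks meningeal fibroblasts, had a signal of 303 ± 15.5 (deposited SD) in control and 426 ± 14.6 in FR30, a difference of 0.78. Its standard-diet signals were 396 ± 15.3 in control and 398 ± 16.7 in FR30, so that control HF was the low sample. Aldh1a1, which also makes retinoic acid, had 3061 ± 17.9 and 4002 ± 138 (0.38), and Cyp26b1, which degrades retinoic acid and is not on this list, had 351 ± 10.1 and 490 ± 17.9 (0.70). Cyp1b1, a cytochrome P450 of fibroblasts and vessels, had 228 ± 2.93 in control and 298 ± 7.79 in FR30 (0.80), and Cyp4b1, a fatty acid hydroxylase, had 193 ± 1.81 and 259 ± 12.6 (1.10). Cyp4b1 was not detected in either standard-diet sample.

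Growth factors and matrix genes included the brightest members. Igfbp2, a binding protein for insulin-like growth factors, had a signal of 824 ± 3.47 (deposited SD) in control and 1246 ± 46.9 in FR30 on HF diet, a difference of 0.71. Igf2, a growth factor that the meninges and choroid plexus secrete, had 4331 ± 185 and 6515 ± 142 (0.58). Ogn, a small proteoglycan also called mimecan, had 1134 ± 28.9 and 1663 ± 52.0 (0.59). All 3 had their lowest signal of the 4 samples in control HF. Bmp7 (0.64) and Wnt6 (0.65), secreted signals of meningeal development, were dim, at no more than 343 and 219. Ptgds, the prostaglandin D synthase of meninges and oligodendrocytes, was among the brightest genes, at 21437 ± 914 and 33267 ± 2799 (0.50). The collagen genes were less far apart, Col1a2 at 0.29, Col3a1 at 0.36 and Col1a1 at -0.03, and Lum, a matrix proteoglycan, was at -0.06. The member furthest lower in FR30 was Nnat, an imprinted gene, at -0.28.

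Set against the mean of the standard-diet pair, these genes were low in control HF rather than high in FR30 HF. Their median was -0.33 in control HF and 0.04 in FR30 HF over the 38 members detected in all 4 samples. Control HF held the lowest signal in 28 of the 38, and FR30 HF the highest in 17. Over all 10100 genes detected in all 4 samples, control HF was lowest in 2378 and FR30 HF highest in 2783. The summed signal of 13 leptomeninges markers, all detected in every sample, was 8318 in control HF and 10682 in FR30 HF, beside 10902 in control and 10698 in FR30 on standard diet. On standard diet, where no sample is shared with the HF pair, FR30 minus control had a median of 0.06 for the list. The 15 members brighter than the median gene, a subset taken after the data were seen, had 12 higher and 3 lower with a median of 0.33. On the authors' normalized signals the list median was 0.25 and 3 members passed 1.5-fold.

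**Figure D2:**
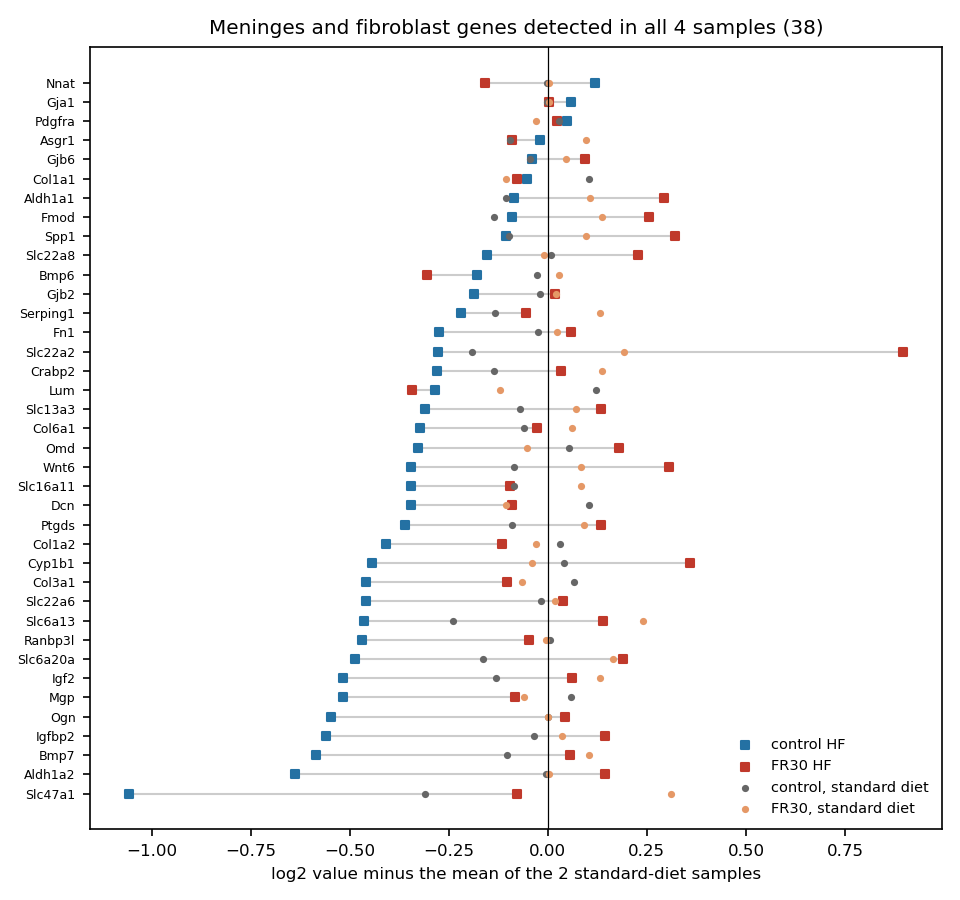
Log2 value of each of the 38 meninges and fibroblast genes detected in all 4 samples, minus the mean of the standard-diet pair, with 1 sample per group and genes ordered by control HF. Blue squares (control HF) lie left of zero for nearly all genes with a median of -0.33, while red squares (FR30 HF) lie around zero with a median of 0.04.

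Other gene groups of the brain's border and vessels had medians nearer to that of all genes. Of 65 extracellular matrix genes detected, 40 were higher and 25 lower with a median of 0.05, and 2 passed 1.5-fold, Ogn and the procollagen-processing enzyme gene Adamts2 (0.63). The 23 endothelial and mural genes had 16 higher, a median of 0.05 and none past 1.5-fold. Genes of choroid plexus and ependyma had 9 higher and 13 lower and a median of -0.08, in which the cilia genes Dnah5 (-0.44), Rsph1 (-0.38) and Tmem212 (-0.34) were lower and Otx2 (0.48), a transcription factor of the choroid plexus, higher. A narrower set of 9 choroid plexus markers had 3 detected in control HF and 5 in FR30 HF, and the 3 detected in both were higher in FR30. The summed signal of all 9, undetected markers included, was 1712 in control HF and 2906 in FR30 HF. Of these sums Ttr, the brightest in FR30 HF, gave 183 and 1251, and it was detected in FR30 HF alone of this pair. Folr1, Kl, Kcne2 and Slc4a5 were not detected in either.

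Slc6a3, the dopamine transporter whose promoter is printed above, differed most among genes with a symbol that were detected in both HF samples. Its signal was 357 ± 10.1 (deposited SD) in control HF and 1642 ± 33.7 in FR30 HF, a difference of 2.72. FR30 on standard diet stood between at 593 ± 13.7, and control on standard diet was at 370 ± 12.2. Th, the enzyme that limits dopamine synthesis, had 841 ± 33.4 and 1190 ± 21.6 (0.60), and Sncg, gamma-synuclein, had 482 ± 8.65 and 665 ± 30.1 (0.62). Slc18a2, which loads monoamines into vesicles, had 649 ± 5.54 and 798 ± 57.9 (0.34). FR30 HF was the highest of the 4 samples for all 4 of these genes.

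Of 12 detected genes on the midbrain dopamine list, 8 were higher and 4 lower in FR30, with a median of 0.22 and 3 past 1.5-fold. Only Slc6a3 passed on the authors' normalized signals, with an offset of 50 and without background correction. Against the mean of the standard-diet pair the list median was 0.23 in FR30 HF and -0.06 in control HF. A set of 10 defining markers, 7 of them on the array, had summed signals of 5368 in control HF and 8095 in FR30 HF, and 5319 and 6123 for control and FR30 on standard diet. The brightest of these markers, Aldh1a1, is also a gene of the meninges list. Among those markers Ddc, which completes dopamine synthesis, and the midbrain transcription factors Pitx3 and Foxa1 were not detected in either HF sample, and the part of neighbouring tissue in these values was not tested. Chrna3, a nicotinic receptor subunit, was also higher, at 280 ± 4.94 against 393 ± 12.3 (0.83), with 345 and 320 in control and FR30 on standard diet.

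Other genes higher in FR30 on HF diet had varied roles. Gpd1, the cytosolic glycerol-3-phosphate dehydrogenase, which is induced by glucocorticoids in brain, had a signal of 531 ± 19.6 (deposited SD) in control and 860 ± 24.5 in FR30, a difference of 0.86. Zcchc9, a zinc finger gene, had 1011 ± 29.8 and 2019 ± 12.9 (1.10), and Amy1, which encodes a salivary-type amylase, had 289 ± 12.7 and 458 ± 10.8 (1.04). Zcchc9 and Amy1 were higher in FR30 on both diets, by 0.90 and 1.25 on standard diet. Gpx2, a glutathione peroxidase, was dim and differed by 0.93. Of 47 antioxidant and glutathione genes, 25 were higher and 22 lower with a median of 0.00, and 3 passed 1.5-fold higher, Gpx2, Akr1c12 and Gstm2, against 0.551% of all genes. The 2 other Akr1c12 probes were not detected. Of 26 cytochrome P450 and sulfotransferase genes, 15 were higher and 11 lower with a median of 0.05, and 4 passed 1.5-fold higher. On the authors' normalized signals none of these 3 and 4 genes passed. Adgrb1, an adhesion receptor, had 371 ± 14.3 and 587 ± 30.9 (0.93) and was highest in FR30 on standard diet, at 760 ± 76.0. Nupr1, a stress-induced nuclear protein gene, had 498 ± 11.1 and 732 ± 12.8 (0.71), and Prg4, which encodes lubricin, was dim and differed by 0.91.

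**Figure D3:**
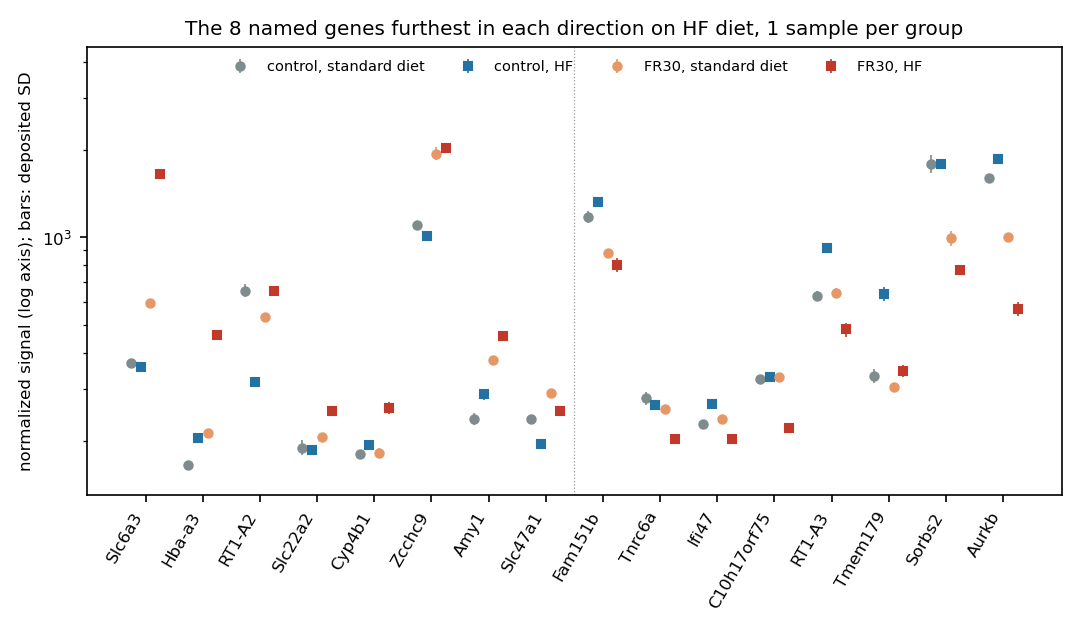
Normalized signal (log axis) in the 4 samples for the 8 named genes furthest higher, left of the dotted line, and furthest lower in FR30 on HF diet, with 1 sample per group and bars for the deposited SD. Red squares (FR30 HF) stand alone at the top for Slc6a3 and at the bottom for Aurkb, while for RT1-A2 the low sample is control HF.

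Lower in FR30 on HF diet was first of all Aurkb, a kinase of chromosome segregation. Its signal was 1855 ± 35.2 (deposited SD) in control HF and 567 ± 30.6 in FR30 HF, a difference of -1.97, beside 1600 and 1000 for control and FR30 on standard diet. A second probe for this gene, which carries the older symbol Aim1, was not detected, so the value rests on 1 probe. None of the other 21 cell cycle and mitosis genes detected passed 1.5-fold, and the list median was -0.01. Sorbs2, a scaffold protein of the actin cytoskeleton, had 1784 ± 41.3 and 772 ± 19.1 (-1.36), and 1790 and 994 on standard diet. For Aurkb and Sorbs2 both FR30 samples lay below both control samples.

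For several lower genes both FR30 samples lay below both control samples. Gnpda2, an enzyme of amino sugar breakdown whose human locus is associated with body weight, had a signal of 779 ± 28.7 (deposited SD) in control and 533 ± 18.2 in FR30 on HF diet, a difference of -0.68, and 816 and 533 on standard diet. Pxmp4, a peroxisomal membrane protein gene, had 588 ± 14.5 and 404 ± 30.9 (-0.75), and 578 and 411 on standard diet. Fam151b had 1323 ± 35.0 and 804 ± 42.1 (-0.84), and differed by -0.49 on standard diet. Birc6, an inhibitor of apoptosis, had 1659 ± 117 and 1091 ± 31.1 (-0.64), and differed by -0.42 there. Qpct, which forms pyroglutamate at the ends of peptides such as thyrotropin-releasing hormone, had 1203 ± 25.6 and 843 ± 27.3 (-0.61), and differed by -0.32 there.

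For other lower genes the high sample was control HF. Slc39a12, a zinc transporter of astrocytes, had a signal of 1764 ± 49.9 (deposited SD) in control HF and 1143 ± 30.9 in FR30 HF, a difference of -0.68, and 1161 and 1264 in control and FR30 on standard diet. Tmem179 had 639 ± 33.2 and 347 ± 17.8 (-1.23), and 334 and 306 on standard diet. C10h17orf75 (-1.17) and Tnrc6a (-0.92), a partner of Argonaute proteins in RNA silencing, were instead lowest in FR30 HF, while their other 3 samples lay close together. Tnrc6a was dim, at 266 in control HF and 203 in FR30 HF.

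The class I histocompatibility genes differed in both directions. RT1-A2 had a signal of 319 ± 5.80 (deposited SD) in control and 654 ± 21.2 in FR30, a difference of 1.49. RT1-A3 had 918 ± 32.2 and 482 ± 26.9 (-1.17), RT1-A1 had 1350 ± 17.2 and 890 ± 22.9 (-0.70), and RT1-S3 had 852 ± 16.9 and 582 ± 13.9 (-0.66). Control HF was the lowest of the 4 samples for RT1-A2 and the highest for the other 3 genes. These genes are near-identical and polymorphic copies, and which of them each probe reads is uncertain. Of 41 genes of antigen presentation and interferon response, 19 were higher and 22 lower with a median of -0.01. The interferon-inducible GTPase gene Ifi47 (-0.94) was the only other gene to pass lower. It was dim, at 268 in control HF and 203 in FR30 HF, and differed by -0.40 on the authors' normalized signals. Psmb8, an immunoproteasome subunit, was at 0.45.

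Set beside the standard diet, which shares no sample with the HF pair, 78 of the 83 genes were detected in all 4 samples. For 57 of these FR30 lay on the same side of control on both diets and for 21 on opposite sides, whereas over all 10100 genes detected in all 4 samples the sign was shared by 60.5%. Of the 52 higher genes, 37 shared the sign and 6 also passed 1.5-fold higher on standard diet, while 28 differed by less than 1.2-fold there. Of the 26 lower genes, 20 shared the sign and 5 also passed. The median standard-diet difference was 0.18 for the higher and -0.29 for the lower genes.

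The place of the HF samples among all 4 was then counted. The higher and lower genes were chosen by the difference between the 2 HF samples, which favours outer places for both. Over all 10100 genes detected in all 4 samples, control HF was lowest in 2378 and highest in 2566. FR30 HF was lowest in 2408 and highest in 2783 of them. Among the 52 higher genes, control HF was the lowest of the 4 samples in 44 and FR30 HF the highest in 37, and FR30 HF lay farther from the standard-diet mean in 20. Among the 26 lower genes, FR30 HF was the lowest in 23 and control HF the highest in 20, and FR30 HF lay farther in 15. Both HF samples lay outside the range of the standard-diet pair for 31 higher and 20 lower genes.

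**Figure D4:**
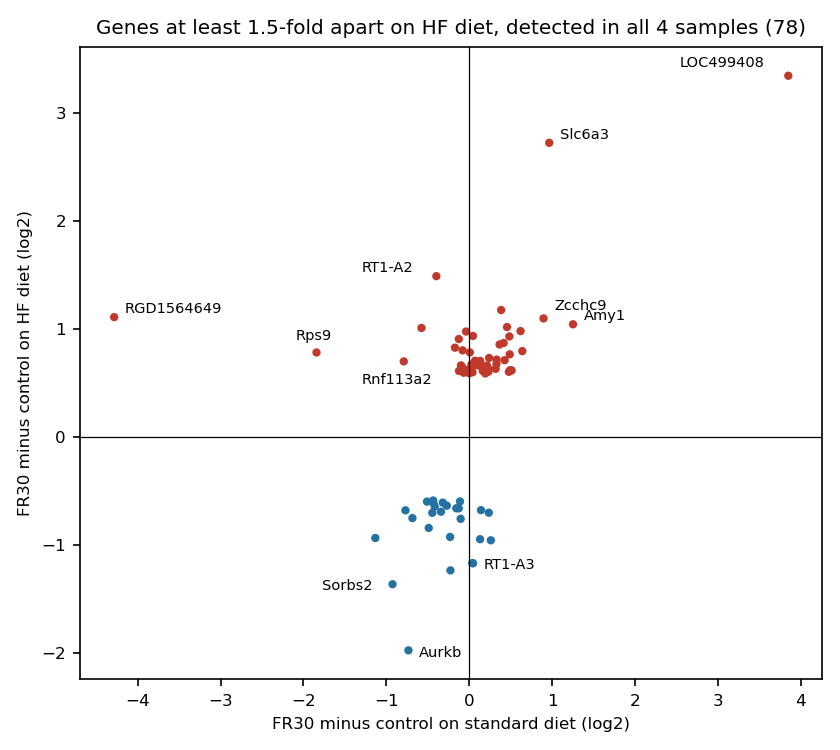
FR30 minus control (log2) on HF diet, vertical, against the same difference on standard diet, horizontal, for the 78 genes at least 1.5-fold apart on HF diet and detected in all 4 samples, with 1 sample per group. Of these, 57 points lie in the quadrants of shared sign, and Rps9 and Rnf113a2 lie far into the upper left.

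Most myelin genes were slightly higher in FR30 HF. Of 38 oligodendrocyte and myelin genes, 31 were higher and 7 lower, with a median of 0.13 and none past 1.5-fold. Deposited signals were more than 2 SD higher for 13 and lower for 0, 34.2% of the list, against 12.4% of all genes compared. The member furthest lower was Cspg4, at -0.17, and Mbp, the gene of myelin basic protein, was at -0.04. Mag, an adhesion protein of the myelin sheath, had signals of 305 ± 11.9 (deposited SD) and 356 ± 13.8 (0.37), and Cryab, a small heat shock protein of oligodendrocytes, had 2208 ± 109 and 2919 ± 169 (0.37). FR30 HF was the highest of the 4 samples in 23 of 37 members, against 2783 of all 10100 genes detected in all 4. The list median was 0.07 above the standard-diet mean in FR30 HF and -0.03 from it in control HF.

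GABA genes were mostly lower. Of 25 GABA genes, 18 were lower and 7 higher in FR30 HF with a median of -0.11. Deposited signals were more than 2 SD lower for 7 and higher for 2, 36% of the list, against 12.4% of all genes compared. Gad2, which synthesises GABA, had signals of 1049 ± 31.8 (deposited SD) and 821 ± 6.69 (-0.45), and was also lower in FR30 on standard diet, by -0.60. The GABA transporter gene Slc6a11 was at -0.42, the receptor subunit Gabrg1 at -0.35 and Gabbr1 at -0.32, while the subunit Gabrd was at 0.55. The 1 member past 1.5-fold, Slc6a13 (0.60), is also a gene of the meninges list. The 26 glutamate genes had 17 lower and a median of -0.06, from Cacng8 (-0.38), Shank1 (-0.33) and Homer2 (-0.32) to Grin2b (0.23) and Cnih2 (0.32). Their deposited signals were more than 2 SD higher for 4 and lower for 2, 23.1% of the list. Of 16 dopamine and noradrenaline genes, 9 were higher and 7 lower with a median of 0.13.

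Transcription factors of hypothalamic neurons were lower more often than higher on HF diet. Of 24 transcription factors of hypothalamic nuclei, 18 were lower and 6 higher with a median of -0.06, among them Pou3f2 (-0.48), Isl1 (-0.39), Nkx2-1 (-0.34) and Fezf1 (-0.33). Among the 6 brighter than the median gene, 3 were higher and 3 lower with a median of -0.02, and on standard diet 11 of the 24 were higher and 13 lower. Pou3f2, a factor of neuroendocrine neurons, had signals of 543 ± 14.7 (deposited SD) and 428 ± 20.1, and was lower in FR30 on standard diet too, by -0.50. Of 36 peptide genes, 16 were higher and 20 lower with a median of -0.04. Deposited signals were more than 2 SD higher for 3 and lower for 8, 30.6% of the list, against 12.4% of all genes compared. Pomc, the precursor of the melanocortins, had 2368 ± 70.1 and 3497 ± 199 (0.53), and the galanin-like peptide gene Galp (0.44) and Npb (0.41) followed. The lowest were the growth hormone releasing hormone gene Ghrh (-0.33), Npvf (-0.30) and Pdyn (-0.27). The appetite peptides Agrp (0.03) and Npy (0.03) hardly differed. Summed hypothalamic marker signals were 93915 in control HF and 91836 in FR30 HF.

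**Figure D5:**
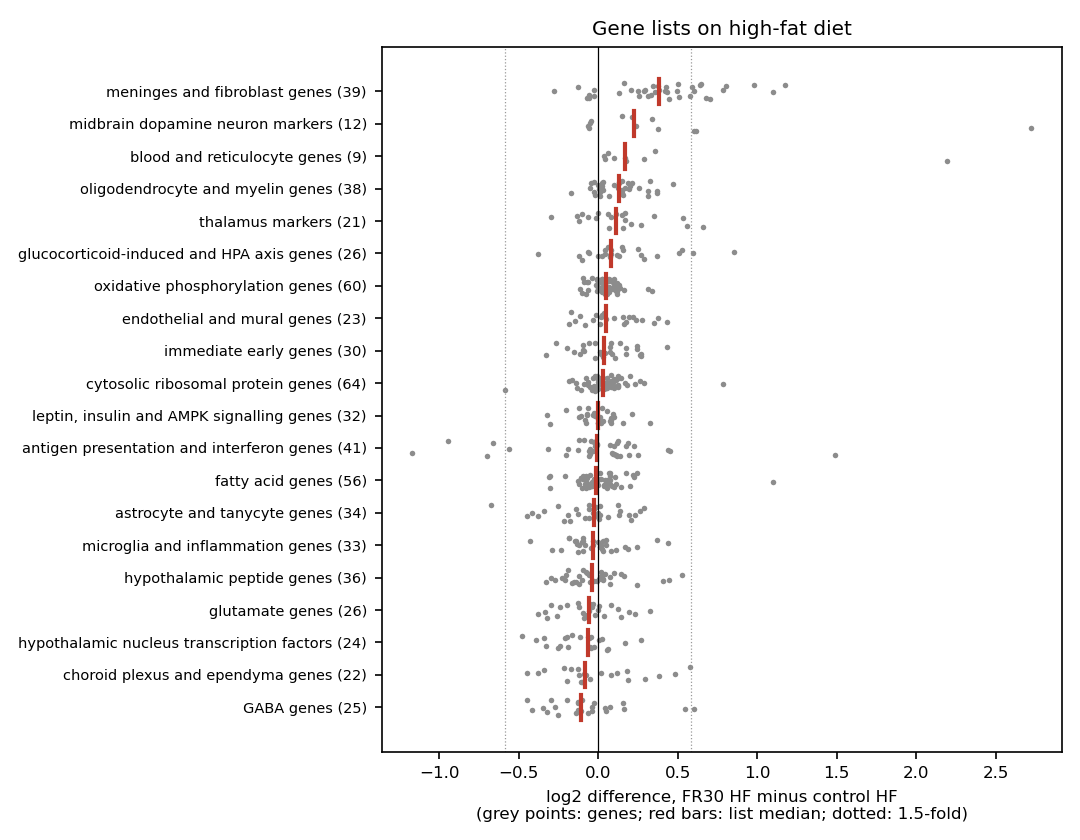
Log2 difference, FR30 HF minus control HF, of each detected member (grey points) and the list median (red bar) for 20 of the gene lists, with the number of members in brackets and dotted lines at 1.5-fold. The meninges and fibroblast list lies furthest to the right with a median of 0.38, and GABA genes lie lowest at -0.11.

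Stress-axis genes were mostly higher. Of 26 genes of glucocorticoid response and the HPA axis, 20 were higher and 6 lower with a median of 0.08. The lowest member was Mt1, at -0.38. Deposited signals were more than 2 SD higher for 9 and lower for 1, 38.5% of the list, against 12.4% of all genes compared. On standard diet 18 of the 26 were higher in FR30 and 8 lower, also with a median of 0.08. Gpd1 and the sulfotransferase gene Sult1a1 passed 1.5-fold, the latter at 541 ± 9.02 (deposited SD) and 748 ± 8.70 (0.59). Sgk1, a kinase induced by glucocorticoids, had 2629 ± 42.0 and 3840 ± 237 (0.51), and was also higher in FR30 on standard diet, by 0.71. Oxidative phosphorylation genes were higher in 46 of 60, with a small median of 0.05 and none past 1.5-fold.

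Most detected genes of energy-sensing pathways differed little. The leptin receptor gene Lepr and the insulin receptor gene Insr did not pass the detection limit in both HF samples and were not compared. The 32 detected genes of leptin, insulin and AMPK signalling had 17 higher and 15 lower, a median of 0.00 and none past 1.5-fold. None had deposited signals more than 2 SD apart, against 12.4% of all genes compared. Lists for fatty acids (median -0.02 over 56 genes), cholesterol (0.01 over 35), glycolysis (0.00 over 28), the circadian clock (-0.01 over 17) and the proteasome (-0.00 over 35) also had medians near that of all genes. The fatty acid list held 1 gene past 1.5-fold, Cyp4b1 (1.10), and the glycolysis list 1, Gpd1 (0.86). Immune genes of microglia had a median of -0.03, though Ctss, a lysosomal protease of microglia, was lower, at 12916 ± 398 (deposited SD) against 10010 ± 166 (-0.43). Among 43 DNA methylation and histone modifier genes, whose median was 0.02, Ezh1, a histone methyltransferase, had 2518 ± 19.9 and 3552 ± 30.5 (0.46), and the deacetylase gene Hdac5 was at 0.40.

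Blood and neighbouring brain regions were followed by their markers. All 9 detected blood and reticulocyte genes were higher in FR30 HF, with a median of 0.17, and Hba-a3, an alpha-globin gene with near-identical copies, had 205 ± 1.78 (deposited SD) and 462 ± 14.9 (2.19). Hba-a3 was dim and differed by 1.17 on the authors' normalized signals. The alpha-globin gene Hba-a2, the brightest of the red blood cell markers, differed by only 0.04, and the beta-globin gene Hbb by 0.17. Summed red blood cell markers were 41313 in control HF and 43554 in FR30 HF, against 25180 and 27428 in control and FR30 on standard diet. Summed thalamus markers were 4740 and 5425 on HF diet and 6287 and 6246 on standard diet, and Prkcd, a kinase abundant in thalamus, had 805 ± 35.3 and 1180 ± 22.8 (0.66). Summed telencephalon markers were 3028 and 3013. The part of these tissues in the differences was not tested.

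Some genes were detected in only 1 of the HF samples, 71 in FR30 and 456 in control, of 21397 genes on the array. Detection also differed over all probes, with 10712 detected in FR30 HF and 11122 in control HF. Where a gene was not detected, the fold is a bound against the lowest detected signal of that sample or the gene's own, whichever was higher, and 12 genes in FR30 and 4 in control passed 1.5-fold by this bound. Ttr, which encodes transthyretin and is made by the choroid plexus, was at least 22.7-fold higher in FR30 after background correction. Its deposited signals, which retain the background, were 1251 ± 49.1 (deposited SD) and 183 ± 4.59, a ratio of 6.84. Sostdc1, a secreted inhibitor of BMP and Wnt signalling that also marks choroid plexus, was at least 2.61-fold higher, and the pituitary hormone gene Prl at least 2.18-fold. On standard diet Ttr was lower in FR30, at 209 against 523 in control, and so was Prl, at 313 against 759, while Sostdc1 was not detected in FR30 there. Summed signals of 7 pituitary markers were 4881 in control HF and 6352 in FR30 HF, though only 1 was detected in control HF and 2 in FR30 HF. A wider list of pituitary genes had 5 detected in both, 1 higher and 4 lower in FR30, with a median of -0.08. The part of choroid plexus and pituitary tissue was not tested. Pkib, an inhibitor of protein kinase A, was at least 2.61-fold lower in FR30 after background correction, with deposited signals of 276 ± 6.81 in control and 184 ± 4.38 in FR30.

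Probes of the same gene often disagreed. Over 243 genes with 2 detected probes, the differences had the same sign in 134. Across these genes, all measured in the same 2 samples, Pearson's r was 0.43 and Spearman's rho 0.31. Among 5 such genes in which either probe passed 1.5-fold, only Rps9 passed with both.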

How the data were processed

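The labels gave each sample's group. Per the labels' protocols, Trizol-extracted RNA was purified and treated with DNase. GenomeStudio was used, per the submitters' processing notes. The non-normalized table holds the authors' bead intensity and a deposited detection p-value per probe. In the normalized table the authors' intensity follows a normalization of unstated method, with, per the file headers, an SD beside each signal. Probe sequences and genome build: not given in the sources used here.

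All 4 samples were processed together by neqc (limma 3.58.1, R 4.3.3; offset 16), which gave log2 values from the non-normalized intensities. The steps were tested on simulated data. A gene was read from its probe of highest mean. Symbols were updated through RefSeq names for 4966 probes; 5496 had no match and kept the file's symbol. The naming rule took the 25 genes with a symbol furthest in either direction, list members past 1.5-fold, up to 4 furthest per direction of each of 52 lists, fixed peptide and receptor genes, the 10 largest bounds and 8 marker lists. RGD1564649 and LOC499408 were named after their values were seen. A withheld item is not reported here. The comparison, members and lists were chosen with earlier results of these data known. Alternatives were the authors' values, an offset of 50, no background correction, median centring, other detection limits, the mean of probes and a 2-fold line. Precision is limited by having 1 sample per group. Promoter motifs were searched in Python 3.11.15, and figures were drawn with matplotlib 3.10.9.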

Additional observations from a re-analysis of the deposited data

Results flagged for a closer look

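For the following genes FR30 differed from control past 1.5-fold in opposite directions on the 2 diets, and the difference between the diets was not tested. Rps9, a ribosomal protein gene with many near-identical pseudogenes, had a signal of 2329 ± 87.2 (deposited SD) in control and 4114 ± 90.5 in FR30 on HF diet, a log2 difference of 0.78, and 3653 ± 159 and 1098 ± 136 on standard diet, a difference of -1.84. FR30 on standard diet was the low sample. Rnf113a2, a RING finger gene, had 402 ± 16.5 and 567 ± 9.28 on HF diet (0.70) and 449 ± 13.3 and 314 ± 12.8 on standard diet (-0.79). Another, unnamed locus, RGD1564649, named after its values were seen, showed 1.11 and -4.28.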

How the results depend on the processing

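The 83 genes past 1.5-fold (57 higher, 26 lower) became 26 (17 and 9) with the authors' normalized values, 24 of them among the 83. They became 50 (33 and 17) with an offset of 50, 25 (15 and 10) without background correction and 17 at 2-fold. Median centring gave 88, a detection p under 0.05 gave 103 and the mean of probes 82. All 83 genes kept their sign in each of these settings, and so did the 78 detected in all 4 samples. The median of the meninges list was 0.25 with the authors' values and 0.27 without background correction, while an offset of 50 left it at 0.37. With median centring the medians were 0.168 for myelin, 0.0824 for oxidative phosphorylation and 0.063 for ribosomal protein genes. Among members brighter than the median gene, a setting chosen after seeing the data, the medians were -0.0162 for nucleus transcription factors, 0.176 for immediate early genes and 0.0345 for Wnt, BMP and Notch genes. The cause of these shifts was not tested. Leaving out a replicate was not possible with 1 sample per group. No paired analysis was possible because each group has 1 sample. Dim genes close to background limit the precision, since 38 of the 83 lie among the dimmest 2587.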

Other observations

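Further genes past 1.5-fold on HF diet were on none of the gene lists described. Fam83d, a gene of the mitotic spindle, and Adrm1, a ubiquitin receptor of the proteasome, were higher in FR30, by 0.78 and 0.67. Fam83d was dim, at 187 in control HF and 224 in FR30 HF, and differed by 0.27 on the authors' normalized signals. Lower were Grhl3, an epithelial transcription factor (-0.69), the actin-capping protein gene Capg (-0.66), Nrg1, a growth factor of the ErbB receptors (-0.61), and Aloxe3, an epidermal lipoxygenase (-0.60). Grhl3, Capg, Nrg1 and Aloxe3 had signals of no more than 281 in any of the 4 samples, close to background. The unnamed locus LOC499408, chosen after its value was seen, differed by 3.34 on HF diet and by 3.85 on standard diet.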
